A study of Mus musculus with 28 samples.

Results

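Glycolysis splits glucose into pyruvate through a fixed series of enzymes, most of which exist as several isozymes encoded by separate genes, and lactate dehydrogenase then exchanges pyruvate for lactate. The pentose phosphate pathway branches off at glucose-6-phosphate and yields NADPH and ribose for nucleotide synthesis. Proliferating progenitors of the embryonic cortex are known for aerobic glycolysis, and the mature brain for its large consumption of glucose by neurons and astrocytes. The genes described here are 34 mouse genes of these pathways: the transporters of glucose and lactate, the enzymes from hexokinase to lactate dehydrogenase, the enzymes that set fructose-2,6-bisphosphate, part of pyruvate dehydrogenase with 1 of its kinases, and the 7 enzymes of the pentose phosphate pathway. They were chosen by gene symbol, with earlier results of these same libraries in view. The counts and tests on them are therefore a description and no independent support for a change of the pathway. All 34 symbols were found among the 13846 genes listed for embryonic cortex and among the 14104 listed for prefrontal cortex. Aldoa stands on 2 rows in each table, so that there are 35 rows.

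RNA sequencing was done on cortex of mouse embryos at E14.5 (embryonic days after conception) and on adult prefrontal cortex (PFC) of a Myt1l knockout line. Myt1l encodes a zinc finger factor of neurons. In E14.5 cortex there were 6 wild-type (WT) libraries, 5 labelled female and 1 male, 6 heterozygous (Het) libraries, 3 of each sex, and 4 homozygous (Hom) libraries, 3 female and 1 male. The PFC set held 6 WT and 6 Het libraries, each with 3 females and 3 males, and no Hom group. The sources used here do not state the structure of the allele, the adults' age, the strain or any pooling of animals. The libraries are bulk tissue, in which fewer cells of a type and less RNA per cell cannot be told apart.

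Levels are given in CPM, the reads of a gene scaled to a common library total, recovered from the deposited log2 values, and a change is a difference of log2(CPM + 0.5) with its standard error (SE). A gene was called when its adjusted p in limma, over all genes tested in that tissue, was under 0.05. The deposited values had been adjusted by RUVr, which removes residual variation between libraries, so that the p-values are smaller than they would be without it. The scaled read numbers recovered per library summed to 27827467 to 30811856 in E14.5 cortex and to 19601294 to 21275162 in PFC. As the check of the genotype labels, Myt1l averaged 55.5 ± 8.16 CPM in WT (SD, n = 6), 42.8 ± 11.1 in Het (n = 6) and 20.2 ± 2.35 in Hom (n = 4) embryos, and 158 ± 8.48 in WT and 114 ± 6.70 in Het PFC (n = 6 each). It was called lower in Hom embryos (log2 change -1.43, SE 0.16, adjusted p = 0.00011) and in Het PFC (log2 change -0.47, SE 0.06, adjusted p = 0.00014) but not in Het embryos (log2 change -0.39, SE 0.15, adjusted p = 0.13). The Het embryonic libraries F02, M07 and F07 held 59.5, 48.9 and 46.0 CPM of Myt1l, inside the WT range of 45.9 to 66.6. For these libraries Myt1l does not tell the Het label from WT. In 2 Het embryonic libraries, F10 and M11, the Y-linked gene Ddx3y goes against the labelled sex, and both were kept as labelled. Of the members, 16 were called lower in Hom and 13 in Het with both libraries, and 16 and 12 without them.

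In embryonic cortex both mutant genotypes had lower summed CPM of the glycolytic enzymes than WT. The 18 rows from hexokinase to lactate dehydrogenase summed to 17022 ± 991 CPM in WT (SD, n = 6), 13397 ± 1116 in Het (n = 6) and 12533 ± 481 in Hom (n = 4). The WT libraries ran from 16046 to 18403 CPM, the Het libraries from 12433 to 15416 and the Hom libraries from 12054 to 12951, so that neither mutant group overlapped WT while Het and Hom overlapped each other. The 7 pentose phosphate genes summed to 1925 ± 106 CPM in WT, 1643 ± 61.3 in Het and 1599 ± 104 in Hom. Here the Hom range, 1466 to 1704 CPM, and the Het range, 1571 to 1743, lay just under the WT range of 1744 to 2054. All 35 rows together made up 1.95% of the recovered reads in WT, 1.56% in Het and 1.47% in Hom embryos.

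**Figure D1:**
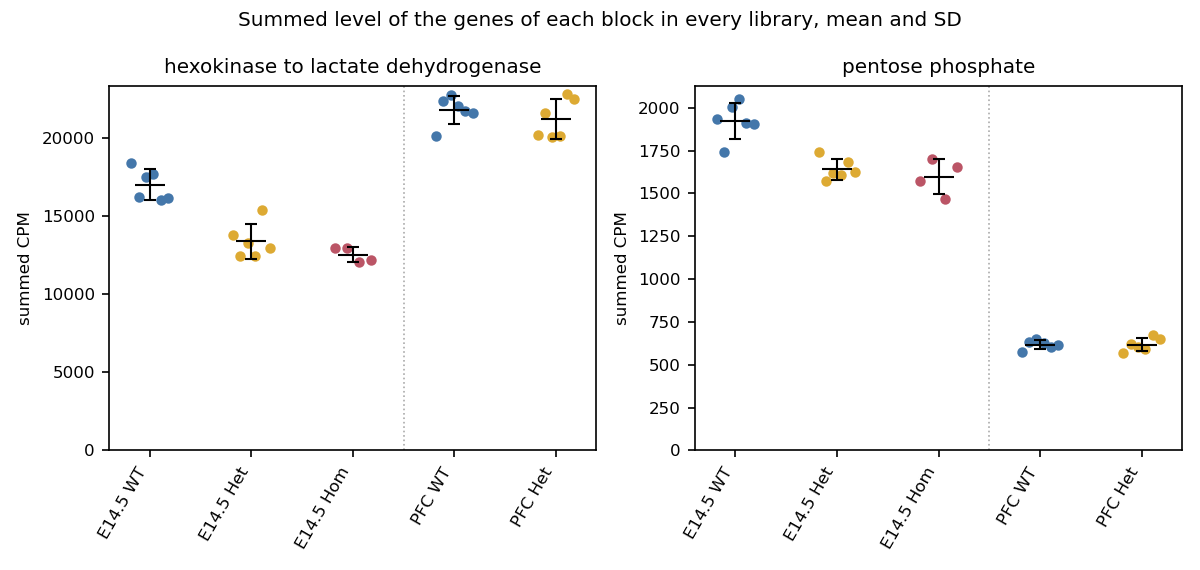
Summed CPM (y axis) of the genes from hexokinase to lactate dehydrogenase (left) and of the pentose phosphate genes (right) in every library, with the group mean and SD in black; the dotted line separates E14.5 cortex from PFC, which come from separately normalized tables. The E14.5 WT libraries lie between 16046 and 18403 on the left, above each Het and Hom library, while the PFC groups overlap.

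Of the 34 rows tested in E14.5 cortex (33 symbols, since Slc16a3 was too low), 16 fell in Hom against WT and none rose. Among all 12429 genes tested, 7.60% were called in this comparison and 4.37% were called lower. The median log2 change of the 34 rows was -0.29, against 0.02 over all genes, and 29 of them were negative. Because abundant genes are called more often, the 17 rows with a mean of 100 CPM or more were set beside all genes of that level: 14 of the 17 were called lower, against 15.7% of the 1672. In 16 members each Hom library lay below each WT library, a pattern that 5.11% of all genes showed; among these members Slc2a3, Pgam1 and Pfkl were not called.

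In Het against WT, 13 of the 34 rows fell and none rose, where 5.83% of all genes were called and 2.98% were called lower. The median log2 change was -0.21 (0.03 over all genes) and 26 were negative. Of the 17 abundant rows 12 were called lower, against 11.0% of genes at that level. Each Het library lay below each WT library in 5 members (Pkm, Eno1, Aldoc, Pgk1 and Tkt), a pattern shown by 1.33% of all genes. The count rested partly on single libraries and settings: it was 8 without WT F04, 5 without Het F07, 8 with the Het and WT libraries fitted alone, 7 with the removed RUVr directions as covariates and 4 with eBayes in its plain form. WT F04 and Het F07 share an identifier prefix, the first number of a library's identifier. Both comparisons use the same 6 WT libraries, so they are not independent of each other. Called in both were Gpi1, Pfkm, Aldoc, Tpi1, Gapdh, Pgk1, Eno1, Pkm, Ldha, G6pdx, Pgd and Tkt (12 genes), in Hom alone Pfkp, Aldoa, Eno2 and Ldhb, and in Het alone Pfkl. That a gene was called in 1 genotype does not show that the genotypes differ; their direct comparison is given further on.

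**Figure D2:**
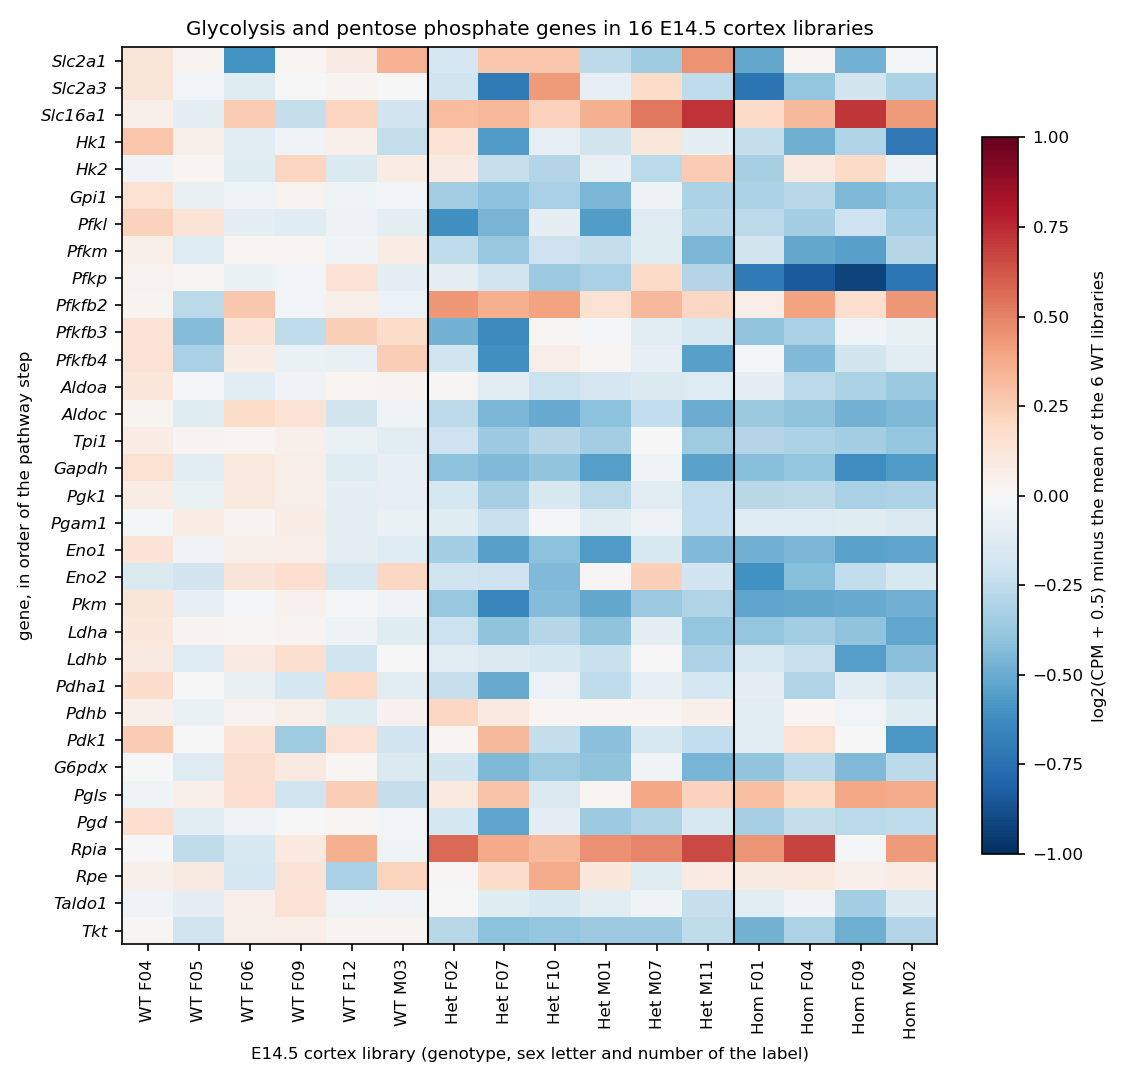
Heat map of log2(CPM + 0.5) minus the mean of the 6 WT libraries (color) for the 33 genes tested (rows, in pathway order) in the 16 E14.5 cortex libraries (columns, named by genotype and by the sex letter and number of their label). Blue, for values below WT, prevails in the Het and Hom columns in the rows of the called genes, least so in Het M07, while the rows of Slc16a1, Pfkfb2 and Rpia are mostly red there.

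None of the transporters was called in E14.5 cortex. Slc2a1, which encodes the glucose transporter GLUT1 of the blood-brain barrier and of glia, had its lowest, median and highest library at 36.0, 56.8 and 69.4 CPM in WT, 42.5, 57.1 and 74.8 CPM in Het and 38.2, 39.1, 53.7 and 55.3 CPM in the 4 Hom libraries. These ranges overlap and the gene was not called (log2 change -0.26, SE 0.19, adjusted p = 0.46 in Hom; log2 change 0.00, SE 0.18, adjusted p = 1 in Het). Slc2a3, the neuronal glucose transporter GLUT3, stood at 8.68, 11.2, 11.7 and 12.9 CPM in Hom and 13.5, 14.7 and 16.1 CPM in WT. Each Hom library was below each WT library, but the gene missed the threshold (log2 change -0.41, SE 0.16, adjusted p = 0.12), and of the 6 Het libraries 3 lay below and 2 above the WT range. Slc16a1, the lactate and pyruvate carrier MCT1, had the most positive log2 change in Hom, with 16.2, 17.7, 19.1 and 23.4 CPM, against 11.8, 13.9 and 16.9 CPM in WT and 16.6, 18.0 and 23.5 CPM in Het. In Hom 3 of 4 libraries and in Het 5 of 6 were above the highest WT library. It did not pass the threshold in either genotype (log2 change 0.41, SE 0.13, adjusted p = 0.06 in Hom; log2 change 0.39, SE 0.13, adjusted p = 0.063 in Het). Slc16a3, the lactate exporter MCT4, lay between 0.0678 and 0.648 CPM over the 16 libraries, around the 0.102 CPM that 3 recovered reads amount to, and was not tested.

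Hexokinase traps glucose in the cell as glucose-6-phosphate. Hk1, the isozyme bound to mitochondria and typical of brain, had 8.38, 9.89, 11.3 and 11.9 CPM in Hom, 9.34, 13.2 and 15.5 CPM in Het and 11.8, 14.1 and 17.2 CPM in WT. Of the 4 Hom libraries 3 were below the lowest WT library, and the gene did not pass the threshold (log2 change -0.43, SE 0.14, adjusted p = 0.069). Hk2, the isozyme of growing and insulin-responsive tissue, was at 18.5, 22.7, 25.1 and 26.8 CPM in Hom and 21.2, 23.3 and 27.3 CPM in WT, with overlapping ranges (log2 change -0.03 with SE 0.12).

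Glucose-6-phosphate isomerase, encoded by Gpi1, converts glucose-6-phosphate to fructose-6-phosphate. Its Hom libraries held 257, 268, 282 and 289 CPM, its Het libraries 255, 278 and 338 CPM and its WT libraries 332, 342 and 389 CPM (lowest, median, highest). The Hom libraries and 5 of the 6 Het libraries lay below the lowest WT library; the exception was M07. Gpi1 fell in both (log2 change -0.36, SE 0.07, adjusted p = 0.0055 in Hom; log2 change -0.32, SE 0.07, adjusted p = 0.0084 in Het).

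Phosphofructokinase carries out the committed step of glycolysis and has a muscle, a liver and a platelet subunit, all present in brain. Pfkm, the muscle subunit, had 87.3, 89.1, 104 and 112 CPM in Hom, 92.2, 107 and 117 CPM in Het and 116, 129 and 134 CPM in WT. It fell in Hom (log2 change -0.39, SE 0.08, adjusted p = 0.0065) and Het (log2 change -0.30, SE 0.08, adjusted p = 0.024). Pfkl, the liver subunit, had 70.2, 70.4, 73.9 and 77.2 CPM in Hom, 58.2, 69.0 and 83.4 CPM in Het and 82.2, 84.9 and 105 CPM in WT. Each Hom library and 5 of 6 Het libraries were below WT, and Pfkl was called in Het (log2 change -0.35, SE 0.09, adjusted p = 0.028) but not in Hom (log2 change -0.29, SE 0.10, adjusted p = 0.076). The platelet subunit Pfkp showed the lowest log2 change of the members in Hom. It was at 4.83, 5.15, 5.62 and 5.74 CPM in Hom, 7.37, 8.05 and 11.1 CPM in Het and 8.94, 9.55 and 10.7 CPM in WT, 55.4% of the WT mean in Hom (log2 change -0.80, SE 0.14, adjusted p = 0.0025) and 88.5% in Het (log2 change -0.19, SE 0.13, adjusted p = 0.44). Here the Hom libraries lay below each Het library as well as each WT library. The locus of Pfkp, chr13:6579768-6648777 on the minus strand (mm10), overlaps Pitrm1 on the other strand, and the sources used here do not say if strand entered the counting.

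The bifunctional PFKFB enzymes make and remove fructose-2,6-bisphosphate, the activator of phosphofructokinase, and none of the 3 was called. Pfkfb3, the form with the highest kinase activity, led this step with 28.0, 41.8 and 45.0 CPM in WT, 24.2, 34.6 and 38.3 CPM in Het and 28.8, 30.3, 36.0 and 36.8 CPM in Hom (log2 change -0.23 with SE 0.13 in Hom and -0.31 with SE 0.12 in Het). Pfkfb4 averaged 12.3 ± 1.73 CPM in WT, 10.5 ± 2.11 in Het and 10.7 ± 1.37 in Hom (SD; log2 change in Hom and Het -0.20 with SE 0.15 and -0.27 with SE 0.14). Pfkfb2, known from heart, had positive values (0.27 with SE 0.15 and 0.33 with SE 0.14), with 4 of the 6 Het libraries above the highest WT library.

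Aldolase cleaves fructose-1,6-bisphosphate into the triose phosphates. Aldoc, the brain form, had 631, 642, 662 and 679.7 CPM in Hom, 618, 650.1 and 739 CPM in Het and 772, 872 and 995 CPM in WT. Neither mutant group overlapped WT, and Aldoc fell in Hom (log2 change -0.42, SE 0.07, adjusted p = 0.0022) and in Het (log2 change -0.39, SE 0.07, adjusted p = 0.0036). Aldoa, the muscle form that is also widespread in embryonic tissue, had 536, 556, 574 and 651 CPM in Hom, 599, 628 and 699 CPM in Het and 641, 695 and 749 CPM in WT. Hom F01 lay within the WT range, and Aldoa was called in Hom (log2 change -0.26, SE 0.06, adjusted p = 0.016) but not in Het (log2 change -0.11, SE 0.06, adjusted p = 0.29). The second Aldoa row, a gene model next to the main one at chr7:126800790-126809108, had at most 1.73 CPM in any E14.5 library and was not called.

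From the triose phosphates to phosphoglycerate each step rests on 1 gene here. Tpi1, which interconverts the triose phosphates, had 691, 715, 729 and 739 CPM in Hom, 704, 727 and 908 CPM in Het and 837, 922 and 953 CPM in WT, and fell in both (log2 change -0.33, SE 0.07, adjusted p = 0.0056 in Hom; log2 change -0.25, SE 0.06, adjusted p = 0.024 in Het). Gapdh, the dehydrogenase that makes the NADH of glycolysis and a common reference gene, had 2655, 2758, 3045 and 3121 CPM in Hom, 2785, 3035 and 3963 CPM in Het and 3755, 4061 and 4524 CPM in WT. It fell to 70.7% of the WT mean in Hom (log2 change -0.50, SE 0.08, adjusted p = 0.0018) and 76.3% in Het (log2 change -0.39, SE 0.08, adjusted p = 0.0072). In Tpi1 and Gapdh alike the highest Het library, M07, was the one inside the WT range. Pgk1, the X-linked kinase that makes the first ATP of the pathway, had 628, 634, 649 and 654 CPM in Hom, 626, 680.4 and 728 CPM in Het and 739, 784 and 842 CPM in WT. Neither mutant group overlapped WT (log2 change -0.29, SE 0.06, adjusted p = 0.0063 in Hom; log2 change -0.21, SE 0.06, adjusted p = 0.037 in Het). Pgam1, the phosphoglycerate mutase of brain, was the step between Gapdh and pyruvate that was not called. Its Hom libraries held 89.9, 91.1, 91.1 and 91.4 CPM, all below the WT range of 93.7 to 105 CPM, yet the difference was small (log2 change -0.13, SE 0.07, adjusted p = 0.28), and its Het libraries held 83.8, 91.9 and 98.4 CPM (log2 change -0.12, SE 0.07, adjusted p = 0.3).

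Of the genes of enolase and pyruvate kinase, Eno1 and Pkm had some of the lowest adjusted p-values of the set. Eno1, the widespread enolase, had 1879, 1889.9, 1959 and 1988 CPM in Hom, 1845, 2032 and 2459 CPM in Het and 2501, 2750.4 and 2987 CPM in WT. Neither mutant group overlapped WT, and the means were 70.6% of WT in Hom (log2 change -0.50, SE 0.07, adjusted p = 0.00061) and 75.5% in Het (log2 change -0.40, SE 0.07, adjusted p = 0.003). A near copy, Eno1b, was listed at means of 3.70, 3.83 and 4.54 CPM in WT, Het and Hom, and how reads shared by the pair were counted is not given in the sources used here. Eno2, the neuron-specific enolase, had 15.9, 18.0, 20.5 and 21.8 CPM in Hom, 17.9, 21.3 and 28.8 CPM in Het and 21.3, 24.4 and 28.2 CPM in WT. Hom M02 lay within the WT range, and Eno2 was called in Hom by a narrow margin (log2 change -0.38, SE 0.11, adjusted p = 0.04) and not in Het (log2 change -0.23, SE 0.11, adjusted p = 0.21).

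Pkm encodes the muscle pyruvate kinases, PKM1 and PKM2, which are splice forms of the same gene that a count per gene cannot separate. It had the lowest adjusted p of the members in both genotypes. The Hom libraries held 2502, 2529, 2547 and 2589 CPM, the Het libraries 2292, 2716 and 2928 CPM and the WT libraries 3397, 3550.1 and 3913 CPM. The lowest WT library was thus above the highest library of either mutant group. The means stood at 70.5% of WT in Hom (log2 change -0.51, SE 0.06, adjusted p = 0.00011) and 73.8% in Het (log2 change -0.46, SE 0.06, adjusted p = 0.00046).

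Lactate dehydrogenase is built from the A subunit, which favors lactate formation, and the B subunit, which favors lactate use. Ldha had 1054, 1139, 1155 and 1182 CPM in Hom, 1137, 1195 and 1415 CPM in Het and 1382, 1526 and 1621 CPM in WT. It fell in Hom (log2 change -0.41, SE 0.07, adjusted p = 0.0011) and in Het (log2 change -0.27, SE 0.06, adjusted p = 0.011), where M07 overlapped WT. Ldhb had 726, 798, 912 and 953 CPM in Hom, 862, 954 and 1069.8 CPM in Het and 929, 1096 and 1189.6 CPM in WT. Hom F01 was within the WT range, and Ldhb was called in Hom (log2 change -0.34, SE 0.08, adjusted p = 0.013) and not in Het (log2 change -0.15, SE 0.08, adjusted p = 0.26).

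**Figure D3:**
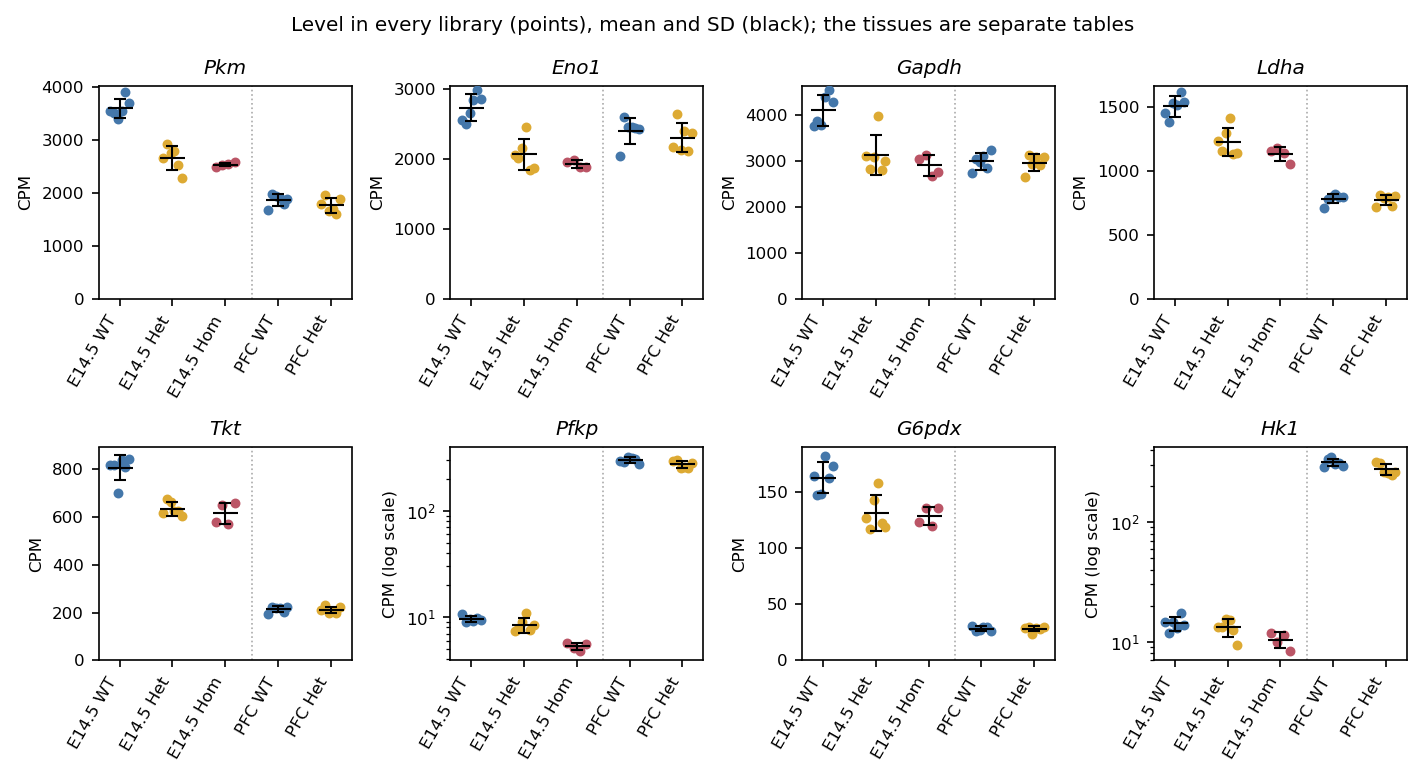
CPM (y axis; log scale for Pfkp and Hk1) of 8 members in every library (points) of the 5 groups, with mean and SD in black; the dotted line separates the E14.5 and PFC tables. In E14.5 cortex the Pkm and Tkt points of Het and Hom lie below all 6 WT points, and in PFC the WT and Het points overlap in each panel.

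At the entry of pyruvate into mitochondria no member was called. Pdha1, the X-linked alpha subunit of pyruvate dehydrogenase, had 103, 113 and 133 CPM in WT, 81.8, 101 and 111 CPM in Het and 94.2, 101, 108 and 109 CPM in Hom (log2 change -0.22 with SE 0.09 in Het and -0.18 with SE 0.09 in Hom). Pdhb, the beta subunit and the one with more reads, had 269.6, 300.0 and 304 CPM, 296, 299.9 and 339 CPM and, in Hom, 269, 269.8, 287 and 297 CPM, with overlapping groups (0.09 with SE 0.06 and -0.06 with SE 0.06). Pdk1, a kinase that turns the complex off, stayed between 5.69 and 11.1 CPM in all 16 libraries.

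In the pentose phosphate pathway 3 of the 7 genes were called, the same 3 in Hom and in Het. G6pdx, the X-linked dehydrogenase that commits glucose-6-phosphate to the pathway and makes NADPH, had 119.6, 124, 136 and 136 CPM in Hom, 118, 125 and 158 CPM in Het and 147, 164 and 182 CPM in WT (log2 change -0.34, SE 0.09, adjusted p = 0.018 in Hom; log2 change -0.31, SE 0.08, adjusted p = 0.024 in Het). Pgd, the next NADPH-forming dehydrogenase, had 136, 142, 144 and 146 CPM in Hom, 119, 146 and 162 CPM in Het and 159, 170.4 and 193 CPM in WT (log2 change -0.27, SE 0.08, adjusted p = 0.035 in Hom; log2 change -0.27, SE 0.07, adjusted p = 0.037 in Het). Hom did not overlap WT in either gene, whereas 1 Het library did, M07 for G6pdx and F10 for Pgd. Tkt, the transketolase that returns pentoses to glycolysis, had 572, 579.7, 650.0 and 657 CPM in Hom, 604, 624 and 673 CPM in Het and 701, 819 and 842 CPM in WT. Neither mutant group overlapped WT (log2 change -0.39, SE 0.06, adjusted p = 0.0014 in Hom; log2 change -0.36, SE 0.06, adjusted p = 0.003 in Het).

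The other 4 pentose phosphate genes were not called. Taldo1, the transaldolase, was slightly lower in mean, at 695, 725 and 824 CPM in WT and 589, 673, 687 and 727 CPM in Hom (log2 change -0.15, SE 0.07, adjusted p = 0.16). Pgls, the lactonase between the dehydrogenases, and Rpia, the ribose-5-phosphate isomerase, had positive log2 changes in Hom (0.31 with SE 0.15 and 0.38 with SE 0.18) and in Het (0.14 with SE 0.14 and 0.46 with SE 0.17). Both were low, with 2.93 to 8.51 CPM across the E14.5 libraries. Rpe, the epimerase of the same branch, was at 30.0 ± 4.17 CPM in WT and 31.4 ± 0.472 in Hom (SD), within the spread of the libraries.

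**Figure D4:**
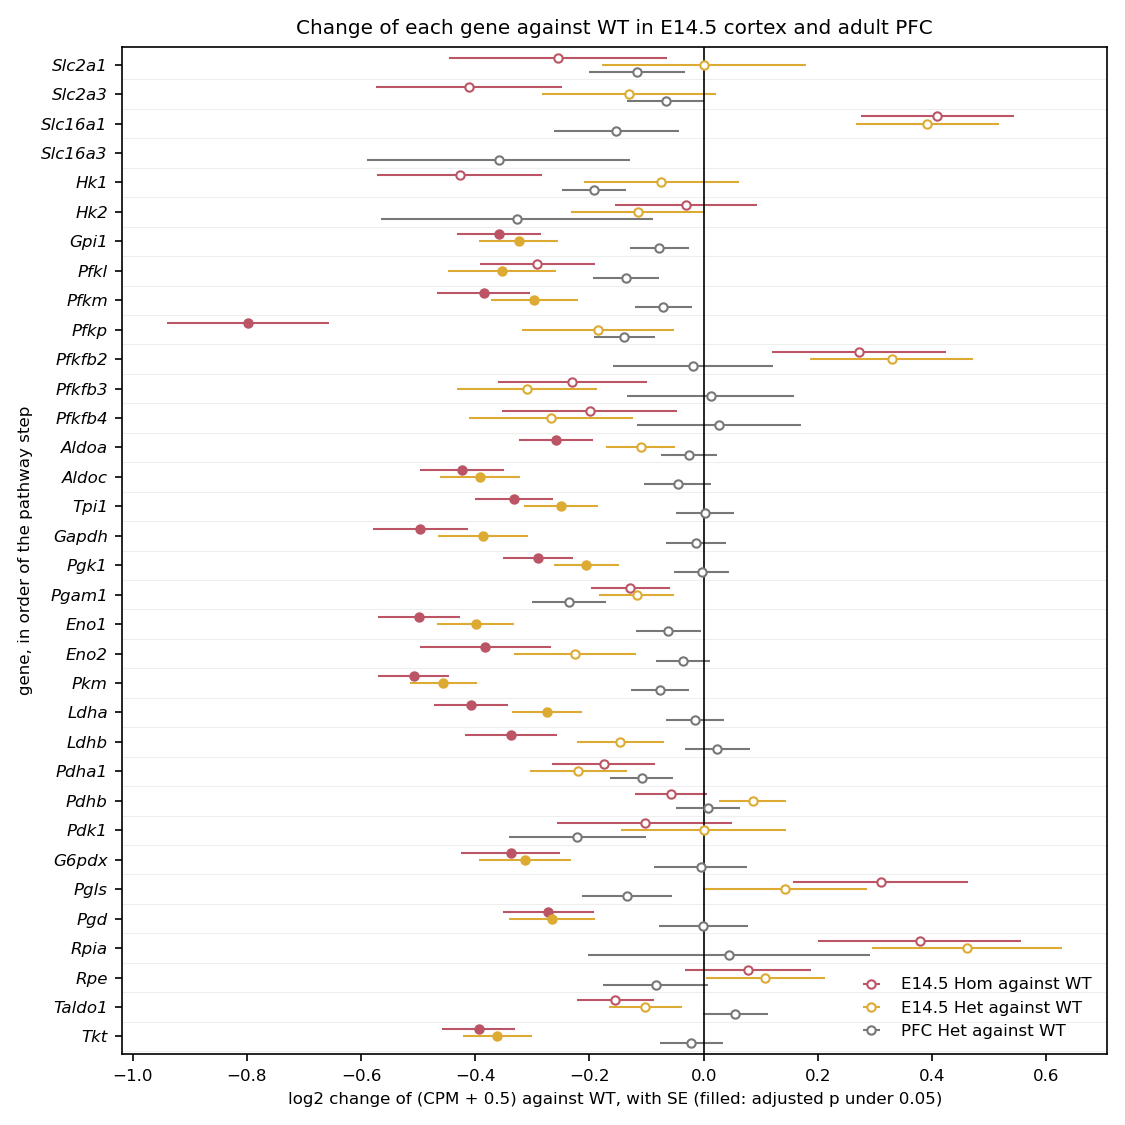
Log2 change of CPM + 0.5 against WT with its SE (x axis) for each member (y axis, in pathway order) in E14.5 Hom, E14.5 Het and PFC Het; filled points were called at adjusted p under 0.05. The 16 filled Hom points and 13 filled Het points are all negative, the Hom point of Pfkp is the lowest at -0.80, and no PFC point is filled.

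Hom and Het embryos were also compared directly, without the WT libraries as reference. No member was called, and of all 12429 genes 0.00805% were, which is Myt1l alone. At an unadjusted p under 0.05 there were 5 members (Hk1, Pfkp, Aldoa, Ldhb and Pdhb) and 636 of all genes. The median log2 change of the members was -0.05, with 27 of 34 negative, against -0.01 over all genes. Pfkp had the largest difference (log2 change -0.61, SE 0.14, adjusted p = 0.59) and each of its Hom libraries lay below each Het library, which 0.531% of all genes showed. For Pkm the difference was -0.05 with SE 0.06, for Eno1 -0.10 with SE 0.07 and for Tkt -0.03 with SE 0.07. These differences were not called, and what size 4 and 6 libraries could detect was not worked out.

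A few libraries were often the extreme of their group. Over the 17 genes called in either comparison, Het M07 was the highest Het library for 12, WT F04 the highest WT library for 9, and Hom F09 the lowest Hom library for 10. Summed over all members, Het M07 held 17648 CPM against 14562 to 16098 in the others, WT F04 held 20932 against 18514 to 20322 in the other WT libraries, and Hom F09 held 14052.5 against 14353 to 15186. The highest Het sum, that of M07, was still below the lowest WT sum. The identifier prefix of WT F04 is also that of WT F09, Het M01, Het F07 and Hom M02. Its WT libraries held 20932 and 20322 CPM, the highest WT sums, and its Het libraries 14576 and 14562 CPM, the lowest Het sums. Whether the genotype difference depends on the prefix was not tested.

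The isozymes of a step were set against each other as CPM per kilobase of the longest annotated transcript, within each library. Only members entered a share, so isozymes and transporters outside the members are left out of it. Their proportions in embryonic WT cortex were unlike those in adult WT PFC, described side by side with no test because the tables were normalized separately. Hk2 made up 56.3 ± 4.28% (SD, n = 6) of hexokinase RNA in embryonic WT cortex, while Hk1 made up 99.4 ± 0.201% in adult WT PFC. Eno1 made up 99.3 ± 0.0992% of enolase in the embryo and 77.8 ± 1.14% in the adult, the remainder being Eno2. Ldha and Ldhb were about level in the embryo (50.4 ± 2.23% Ldha), whereas Ldhb made up 76.1 ± 0.506% in the adult. Pfkp made up 1.60 ± 0.130% of phosphofructokinase in the embryo and 14.6 ± 0.665% in the adult, and Aldoa 58.7 ± 3.22% and 77.9 ± 1.41% of aldolase. Of Slc2a1 and Slc2a3 together, Slc2a3 made up 12.5 ± 2.13% and 36.1 ± 4.73%. Pfkfb3 was the leading PFKFB form at both ages, with 62.8 ± 2.62% and 40.1 ± 8.17%.

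Between genotypes most of these proportions were close. In Hom embryos Hk2 made up 63.4 ± 5.89% of hexokinase (n = 4), Pfkp 1.13 ± 0.0445% of phosphofructokinase, Aldoa 61.4 ± 1.36% of aldolase, Eno1 99.3 ± 0.114% of enolase and Ldha 49.1 ± 2.74% of lactate dehydrogenase. The shares of Pfkp in Hom, 1.08 to 1.18%, lay below its WT shares of 1.47 to 1.83%, and those of Pfkfb2 in Hom, 11.2 to 15.5% of the PFKFB forms, lay above its WT shares of 8.02 to 10.6%. The other Hom shares overlapped WT, and in PFC the Het shares overlapped WT in each family. With the summed exon length in place of the longest transcript, Aldoc in place of Aldoa led in WT and Hom embryos and Ldhb in place of Ldha in WT embryos.

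**Figure D5:**
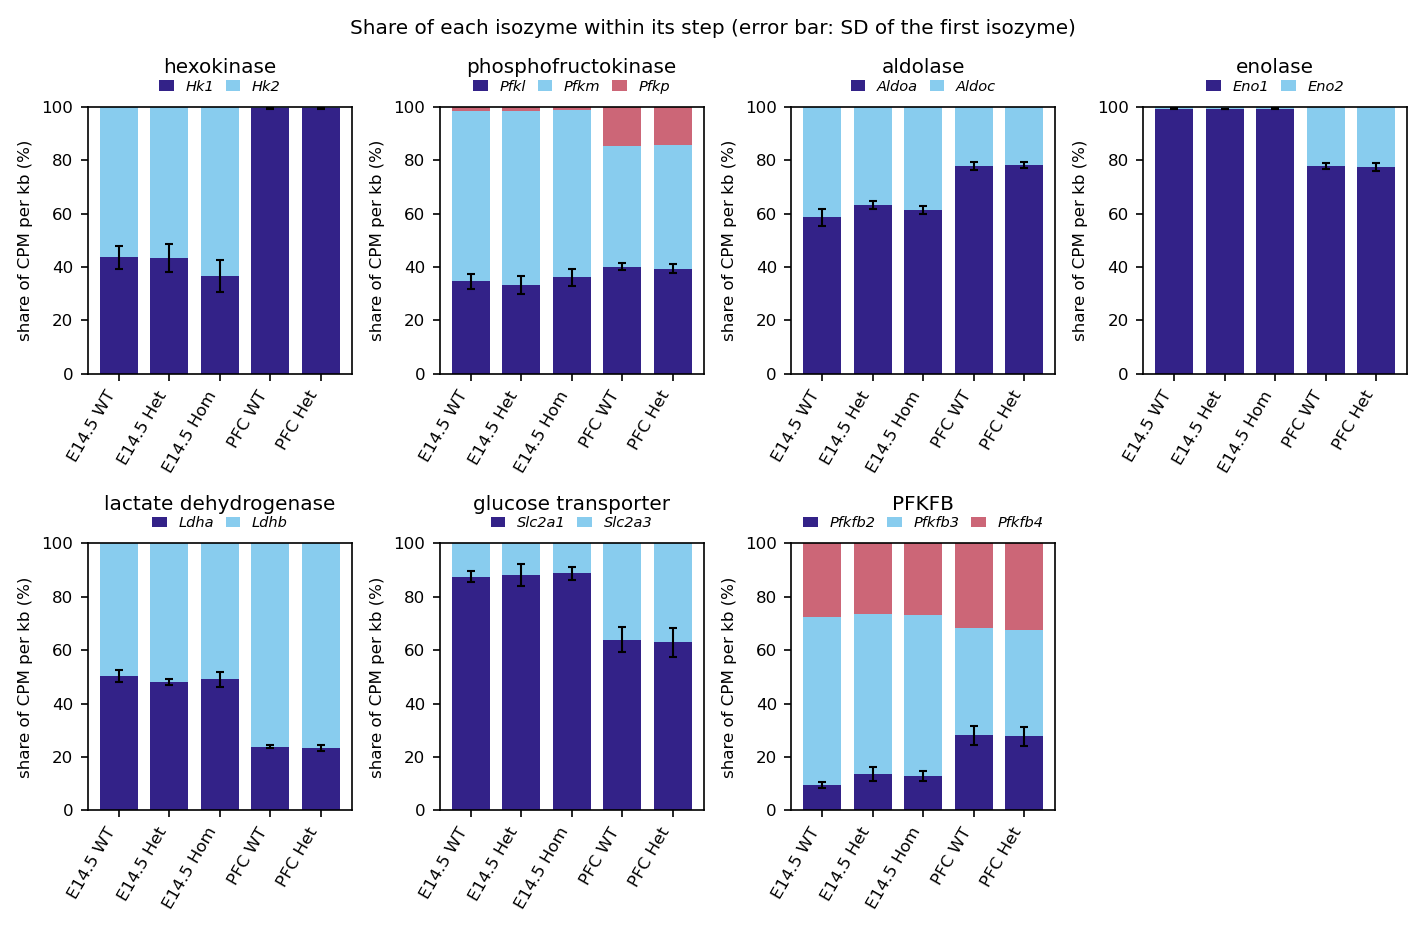
Share of each isozyme among its step's members (y axis, percent of CPM per kilobase of the longest transcript). Bars are means of the 5 groups for 7 families, and the error bar is the SD of the first isozyme named. In PFC Hk1 fills 99.4% of the WT hexokinase bar, against 43.7% in WT embryos, and Ldha 23.9% of the lactate dehydrogenase bar, against 50.4%; among embryos the Pfkfb2 share is 9.52% in WT, 13.7% in Het and 13.0% in Hom.

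Comparing WT embryos with WT adults, 16 of the 35 rows had each PFC library above each E14.5 library, 13 had each below, and 6 overlapped. Of the 13071 genes listed in both tables, 42.7% had each PFC library above and 30.2% each below, so that most genes differ between these tables and the members' counts are near this background. Among the rows higher in PFC were Eno2 (24.6 ± 3.23 and 943 ± 43.2 CPM, SD), Pfkp (9.62 ± 0.622 and 301 ± 17.9), Hk1 (14.2 ± 1.81 and 315 ± 23.9), Pgls (6.43 ± 0.933 and 68.1 ± 4.04) and Aldoa (694 ± 35.8 and 4766 ± 208). Among those higher in the embryo were Hk2 (23.5 ± 2.26 and 2.49 ± 0.820), G6pdx (163 ± 13.6 and 28.3 ± 2.16), Pgd (172 ± 11.6 and 40.7 ± 2.30), Tkt (805 ± 52.4 and 214 ± 12.5) and Taldo1 (745 ± 47.7 and 244 ± 13.9). The ratio of the embryonic to the adult mean was 5.77 for G6pdx, 4.23 for Pgd, 3.77 for Tkt and 3.05 for Taldo1, whereas the adult mean was 38.3 times the embryonic one for the neuronal enolase Eno2 and 22.2 times for the brain hexokinase Hk1.

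In adult PFC no member was called in Het against WT, where 0.404% of 12870 genes were (52 genes). At an unadjusted p under 0.05 there were 4 members (Pgam1, Hk1, Pfkp and Pfkl), all lower in mean, and 1749 of all genes. The median log2 change was -0.05 (0.01 over all genes) and 27 of 34 were negative. Leaving out WT M07 or Het M09, or using females alone, Pgam1 was called (1 member), and without Het M05 Hk1 was (1 member). No member had each Het library below each WT library, which 0.319% of all genes had. The sum from hexokinase to lactate dehydrogenase was 21796 ± 898 CPM in WT and 21233 ± 1251 in Het (SD, n = 6 each), and that of the pentose phosphate genes 618 ± 25.2 and 618 ± 38.8.

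The members nearest the threshold in PFC were Pgam1 and Hk1. Pgam1 had 310.0, 336 and 387 CPM in WT and 264, 290.2 and 345 CPM in Het, 5 of the 6 Het libraries lying below the lowest WT library (log2 change -0.24, SE 0.07, adjusted p = 0.093). Hk1 had 289.5, 309 and 349 CPM in WT and 249.6, 263 and 320.2 CPM in Het, with 4 of 6 below (log2 change -0.19, SE 0.06, adjusted p = 0.11). The genes with the lowest p in the embryo had PFC ranges that overlapped: Pkm 1673, 1900.0 and 1976 CPM in WT and 1611, 1749 and 1968 CPM in Het (log2 change -0.08 with SE 0.05), Eno1 2048, 2447 and 2596 CPM and 2111, 2267 and 2638 CPM (-0.06 with SE 0.06), Gapdh 2731, 2998 and 3239 CPM and 2638, 2999 and 3113 CPM (-0.01 with SE 0.05). Tkt had 194, 220.3 and 223 CPM in WT and 197, 207 and 234 CPM in Het (-0.02 with SE 0.06). Whether the Het effect differs between the tissues was not tested, since the tables were normalized separately. The interaction of genotype and sex was called for no gene of the 12870 (0%); 5 members and 1092 of all genes had an unadjusted p under 0.05, and the member with the lowest was Aldoc (log2 change 0.30, SE 0.10, adjusted p = 0.5, male minus female effect of Het).

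Genes next to these pathways were read from 6 lists. Over all genes tested in E14.5 cortex, 7.60% were called in Hom and 5.83% in Het. None of the 15 tested other glycolytic isozymes and regulators (among them Eno3 and Tigar) was called in any comparison. Of 15 other sugar, lactate and pyruvate transporters, Slc2a5, the fructose transporter GLUT5 of microglia, was called lower in Hom (log2 change -0.78, SE 0.23, adjusted p = 0.04) and Het (log2 change -0.90, SE 0.22, adjusted p = 0.016), and Slc2a4, the insulin-responsive GLUT4, in Het (log2 change -0.58, SE 0.17, adjusted p = 0.046). Of 11 further genes listed with pyruvate dehydrogenase in E14.5 cortex, only Pcx was called, lower in Hom (log2 change -0.52, SE 0.13, adjusted p = 0.018). Pcx carboxylates pyruvate to oxaloacetate and is a separate enzyme. Of 14 other pentose phosphate, ribose and NADPH enzymes, Mthfd1, an enzyme of folate metabolism, was called lower in both genotypes (log2 change -0.32 and -0.34) and Gsr, glutathione reductase, higher in Hom (log2 change 0.52, SE 0.13, adjusted p = 0.016).

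Of 25 genes of glycogen and other hexose branches, 5 fell and 1 rose in Hom, and 3 fell in Het, where 7.60% and 5.83% of all genes were called. Mpi, which links fructose-6-phosphate to mannose, fell in Hom (log2 change -0.39, SE 0.08, adjusted p = 0.0061) and Het (log2 change -0.28, SE 0.08, adjusted p = 0.03), as did Pygb, the brain glycogen phosphorylase (-0.35 and -0.34). Akr1b3, aldose reductase, fell in Hom (-0.31), and Uap1, of the hexosamine pathway, rose (0.43). The median log2 change of this list was -0.20 in Hom and -0.10 in Het, against 0.02 and 0.03 over all genes.

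Next came 21 tested genes that hypoxia is known to induce outside glycolysis or that encode the hypoxia machinery. In Hom 1 rose and 1 fell, and in Het 2 rose, where 7.60% and 5.83% of all genes were called. In Hom P4ha2, a collagen prolyl hydroxylase, was called lower (log2 change -0.83, SE 0.20, adjusted p = 0.013) and Mxi1, a MYC antagonist, higher (log2 change 0.41, SE 0.11, adjusted p = 0.028). In Het Hif1a, the oxygen-regulated factor itself, rose from 24.8 to 33.7 CPM in mean (log2 change 0.49, SE 0.10, adjusted p = 0.0082), and Mxi1 rose too (log2 change 0.40, SE 0.11, adjusted p = 0.029). The list's median log2 change was 0.04 in Hom and 0.11 in Het, against the same 0.02 and 0.03. In PFC no gene of the 6 lists was called.

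Markers of the cell types that the dissections could hold were read beside these results. The share called over all genes was 7.60% in Hom and 5.83% in Het. The cortical neuron list summed to 6624 to 7590 CPM in WT, 6106 to 7271 in Het and 6002 to 6883 in Hom embryos, and the progenitor list to 1510 to 1949, 1707 to 2239 and 1757 to 2114; no gene of either list was at 0. Among progenitor markers Emx2 and Sox2 were called higher in Hom, and among the 13 neuron markers Tbr1 rose and Tubb3 fell in Hom, while those called in Het included Tbr1 and Neurod6, which rose, and Camk2a and Tubb3, which fell. The median log2 change was 0.30 in Hom and 0.24 in Het for the neuron list, and 0.16 and 0.11 for the progenitor list. Endothelial markers summed to 57.0 to 131 CPM in WT, 69.4 to 136 in Het and 48.6 to 101 in Hom (8 tested, none called, median log2 change -0.48 in Hom). Erythroid markers summed to 8345 to 16212 CPM in WT, 10336 to 18516 in Het and 7411 to 12346 in Hom (10 tested, none called, median -0.30 in Hom), so that blood RNA was present in each embryonic library.

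Choroid plexus markers summed to 1415 to 4041 CPM in WT, 3030 to 5252 in Het and 1604 to 2924 in Hom (6 tested, none called, median 0.50 in Het). Mitochondrially encoded genes summed to 5943 to 9034 CPM in WT, 6568 to 10992 in Het and 6772 to 10923 in Hom; mt-Co3 was called higher in Hom, and mt-Co3 and mt-Co2 in Het (9 tested, median 0.22 and 0.33). Meningeal (7 tested), ventral telencephalic (9), microglial (8), astrocyte (5) and oligodendrocyte (5) lists held 2 called genes in all, Ogn higher in Het and Dlx1 higher in Hom. Their median log2 changes in Hom were 0.12, 0.43, 0.17, -0.23 and -0.02, and in Het 0.29, 0.13, 0.07, -0.09 and -0.16. Ventral telencephalic markers summed to 33.5 to 64.0 CPM in WT, 39.5 to 106 in Het and 45.4 to 124 in Hom. In PFC no list had a called gene apart from Hbb-bt, a hemoglobin gene called lower, among the erythroid markers. The part of these markers in the glycolytic results was not tested.

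The promoters of the 4 members with the lowest p in Hom are shown because these genes had the clearest embryonic difference. Each window holds 250 bases before and 50 after a RefSeq transcription start (build GRCm38.p6, plus strand in all 4), and where RefSeq gives several starts the window nearest to the most annotated transcript starts was taken. Capitals mark ACGTG or GCGTG on either strand (CACGT or CACGC as printed when on the other), the core bound by hypoxia-inducible factors.
Pkm: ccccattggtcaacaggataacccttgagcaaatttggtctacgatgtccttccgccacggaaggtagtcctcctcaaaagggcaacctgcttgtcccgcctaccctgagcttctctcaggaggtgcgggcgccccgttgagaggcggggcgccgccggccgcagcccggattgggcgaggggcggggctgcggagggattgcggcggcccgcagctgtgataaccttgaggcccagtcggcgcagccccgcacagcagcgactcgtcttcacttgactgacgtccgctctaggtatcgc
Eno1: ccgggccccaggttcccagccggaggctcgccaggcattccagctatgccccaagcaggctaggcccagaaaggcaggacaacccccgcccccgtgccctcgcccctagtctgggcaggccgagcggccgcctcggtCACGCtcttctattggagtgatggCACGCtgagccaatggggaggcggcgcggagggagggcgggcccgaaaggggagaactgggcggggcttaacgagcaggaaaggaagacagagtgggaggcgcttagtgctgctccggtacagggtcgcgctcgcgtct
Ldha: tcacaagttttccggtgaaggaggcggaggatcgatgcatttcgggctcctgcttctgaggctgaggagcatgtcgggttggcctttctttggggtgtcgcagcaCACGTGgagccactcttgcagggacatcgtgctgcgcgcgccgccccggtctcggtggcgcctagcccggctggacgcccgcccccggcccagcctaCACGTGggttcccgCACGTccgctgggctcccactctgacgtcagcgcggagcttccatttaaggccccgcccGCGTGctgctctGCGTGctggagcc
Tkt: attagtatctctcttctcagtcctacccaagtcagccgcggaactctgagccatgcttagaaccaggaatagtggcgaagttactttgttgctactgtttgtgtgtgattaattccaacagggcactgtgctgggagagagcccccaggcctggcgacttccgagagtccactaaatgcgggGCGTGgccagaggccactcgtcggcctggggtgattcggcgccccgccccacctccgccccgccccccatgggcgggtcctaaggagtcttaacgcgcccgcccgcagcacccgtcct
The windows lie at chr9:59656326-59656625 (Pkm), chr4:150236974-150237273 (Eno1), chr7:46845554-46845853 (Ldha) and chr14:30548881-30549180 (Tkt). The Ldha window held 7 such cores, 4 of which lie in 2 copies of the E-box CACGTG, the Eno1 window 2, the Tkt window 1 and the Pkm window 0. The Pkm window shown is 1 of 2 RefSeq windows of that gene, and the part of such cores in the embryonic difference was not tested.

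Over all 49 RefSeq windows of 33 members (Slc2a3 had none), ACGTG stood in 42.9% and GCGTG in 61.2%, against 19.6% and 32.4% of all 32851 mouse windows of the same length. CACGTG, which contains ACGTG, stood in 10.2% (7.15% of all windows), the GC box GGGCGG in 61.2% (35.7%) and AAGTT, the core bound by the MYT1 family, in 34.7% (39.3%), each on either strand. In the 27 windows of the 16 genes called in Hom the shares were 37.0% for ACGTG, 55.6% for GCGTG, 7.41% for CACGTG, 51.9% for GGGCGG and 37.0% for AAGTT. A match of these letters is no evidence of binding. The members' longest transcripts have a median GC content of 52.6%, against 49.7% over the genes of the E14.5 table. The GC content of the promoter windows themselves was not measured.

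By position, the members are spread over 15 chromosomes with 7 on chromosome 6 (Hk2, Slc2a3, Eno2, Tpi1, Ldhb, Rpia and Gapdh) and 3 on X (Pdha1, G6pdx and Pgk1). Pkm lies at chr9:59656368-59679375, Eno1 at chr4:150236721-150248879, Ldha at chr7:46841475-46855627 and Tkt at chr14:30548359-30574720 (mm10, all on the plus strand). Of the 35 rows 9 overlap another listed gene on the opposite strand, the called ones being Pfkp, Tpi1, Aldoa, G6pdx, Pfkm and Gapdh. Overlap was taken from whole gene spans, and shared exon sequence was not measured. If strand was not used in counting, reads in bases shared with the partner cannot be told apart from the partner's.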

How the data were processed

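Per the labels' protocols, total RNA came from a Zymo extraction and went into SMARTer Ultra Low libraries. Trimmomatic, Bowtie2, STAR, HTSeq and mm10 are named in the submitters' processing notes, without versions. Per the file headers and names, the authors deposited 1 table per tissue of CPM after RUVr, a removal of unwanted variation. The deposited values fit log2 CPM with a prior count of 2, so CPM were recovered by reversing the log2 and subtracting the lowest value. All recovered values were whole multiples of a step per library (within 0.01); they are scaled numbers, not raw counts, and raw depth is not known. Near-zero residual variation remained along 2 directions in E14.5 cortex and 1 in PFC, as RUVr leaves it.

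Each tissue was fitted on its own with limma 3.58.1 (R 4.3.3; lmFit, eBayes with trend and robust) on log2(CPM + 0.5), with labelled sex as covariate and Benjamini-Hochberg adjustment over all genes at 1 CPM or more in at least 4 (E14.5) or 6 (PFC) libraries. The fits were also run on simulated numbers with known changes. Those numbers held no RUVr adjustment, so that run cannot judge the p-values given here. The authors' log2 values, taken as deposited, were an alternative, among others given in the closing section. The members, the 6 pathway lists, the 11 marker lists and the motifs were chosen with earlier results of these data known. Values per library are given for members called, members whose groups do not overlap and the leading isozyme of each step; list genes are named where called, up to 4 a list with the lowest p. Of the neuron markers called in Het, 1 is not reported here. Nothing states that libraries came from separate litters, so p-values measure the spread between these libraries. Transcript lengths and positions are from GENCODE vM21.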

Additional observations from a re-analysis of the deposited data

Results flagged for a closer look

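Of 170 sets of a member and a group of 4 to 6 libraries, 10 had a library far from the rest by Dixon's criterion, where chance flags about 1 in 20. In E14.5 cortex these were Tkt in WT F05 (701 CPM, the others 811 to 842), Gpi1 in Het M07 (338 CPM, the others 255 to 282) and Gapdh in Het M07 (3963 CPM, the others 2785 to 3107). In PFC, WT F04 was low for Pfkl (324 CPM, the others 354 to 368), Aldoa (4349 CPM, the others 4810 to 4905), Ldha (714 CPM, the others 779 to 819) and Eno1 (2048 CPM, the others 2424 to 2596). This PFC library is the only one with its identifier prefix, so a trait of the library and one of the prefix cannot be told apart. Het F02 was low for Slc16a3 (0.976 CPM, the others 2.35 to 3.02) and G6pdx (24.0 CPM, the others 28.0 to 29.6), and Het F04 for Rpe (15.7 CPM, the others 20.2 to 21.9).

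Slc16a1 was the member in which each Het library of E14.5 cortex (16.6 to 23.5 CPM) lay above the WT mean of 14.2 CPM (log2 change 0.39) and each Het library of PFC (14.1 to 18.7 CPM) below the WT mean of 19.3 CPM (log2 change -0.15). This difference between the tissues was not tested.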

How the results depend on the processing

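Over 31 alternative settings in E14.5 cortex, no log2 change of a member called there changed sign; the members not called were not followed across settings. In Hom, 11 of the 16 called members remained called under each of them (Aldoc, Pfkp, Tkt, Tpi1, Pkm, Pfkm, Gpi1, Gapdh, Pgk1, Ldha and Eno1); Eno2 was lost in 13, Pgd in 12, Aldoa in 5, G6pdx in 4 and Ldhb in 2. The Hom count ran from 12 to 17 on leaving out each library, was 11 with plain eBayes and 20 with the compared groups alone (19 lower, 1 higher). In Het, 4 of 13 remained called under each setting (Aldoc, Tkt, Pkm and Eno1). The Het count moved to 8 with the compared groups alone, 7 with the removed RUVr directions as covariates and 4 with plain eBayes, and ran from 5 to 15 on leaving out each library; it was 9 with GC and length trends removed. The cause of these moves was not tested. The PFC count moved to 1 in females alone and ran from 0 to 1 on leaving out each library. No member was called between Hom and Het or in the interaction under any setting run. Of 80 isozyme shares, 56 moved by 1 SD or more with exonic length. No paired analysis was possible because the numbers in the labels run on through all genotypes within an identifier prefix, so that a shared number marks no shared animal; with the identifier prefix as covariate 15 (Hom), 13 (Het) and 0 (PFC) members were called. Raw depth is not known, and levels near 3 recovered reads (0.102 CPM in E14.5 cortex, 0.147 in PFC) carry little information.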
